A study of Mus musculus with 20 samples.

Results

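The CPEB family of RNA-binding proteins, encoded in the mouse by Cpeb1, Cpeb2, Cpeb3 and Cpeb4, was followed at the level of its own mRNAs in activated CD8 T cells. Its members were taken by gene: a row of the deposited table of 3′ UTR counts belonged to the family where its transcript and UTR start lay in 1 of these 4 genes on GRCm38. Each gene had 1 row, so the family was 4 of 20586 rows. The study was an RNA immunoprecipitation with a homemade antibody against CPEB4, sequenced together with input RNA, from CD8 T cells of C57BL/6 mice. Cells were bead-purified from spleen and lymph nodes and, in every group, stimulated for 48 h with anti-CD3 and anti-CD28 (1 μg/ml each) and IL-2 (20 ng/ml). The groups were KO IP (precipitate from cells of Cpeb4 KO animals), WT IP (precipitate from wild-type cells), KO input (poly(A)-selected RNA of Cpeb4 KO cells) and WT input (the same from wild-type cells). Input libraries were amplified for 12 cycles and precipitates, which were not poly(A)-selected, for 7. The labels do not give the KO allele, whether animals were pooled, or whether the experiments named D1, D3 and RIP8 were separate animals. The p-values therefore speak only of the scatter among these libraries, which may be technical.

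CPEB proteins bind U-rich cytoplasmic polyadenylation elements in 3′ UTRs and can hold an mRNA silent or drive elongation of its poly(A) tail and its translation. CPEB1 was first described in frog oocytes, where it controls maternal mRNAs during meiosis. CPEB2, CPEB3 and CPEB4 are more alike to each other than to CPEB1, and CPEB4 is the member whose bound mRNAs the study set out to find.

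The values below come from 9 sequencing runs of 6 libraries: KO IP D1 in batches 2 and 3, WT IP D1 in batches 2 and 3, KO input D1, KO input RIP8, WT input D1, and WT input RIP8 in batches 1 and 2. The other 11 of the 20 runs were not used for named genes, because their values and row names are out of register (0 of 60 neighbouring rows with a shared UTR start held equal counts there, against 25 of 49 in the 9 runs used). The 9 runs fell into separate kinds by a single UTR, that of Lars2. It held between 34.8 and 50.1% of the counts in 5 runs, which had 192134 to 317395 other counts each, and between 1.16 and 5.40% in the other 4, which had 2464476 to 4085902. The 5 runs are called Lars2-rich below and the other 4 Lars2-poor. The kinds cut across the WT labels but coincided with IP against input in KO. The Lars2-rich runs were WT IP D1 batch 2, both KO inputs, WT input D1 and WT input RIP8 batch 1, and the Lars2-poor runs were both KO IP runs, WT IP D1 batch 3 and WT input RIP8 batch 2. Runs of different groups were also alike by chi-square per degree of freedom, which is 1 for sampling noise alone. It was 1.05 between WT IP D1 batch 2 and WT input D1, and 1.09 between WT IP D1 batch 2 and KO input D1. Between KO input D1 and WT input D1 it was 1.12, but 58.7 between the runs named WT IP D1. For a given difference the value grows with the counts of the runs, and each pair had its own set of rows. Values of pairs of unlike depth therefore do not rank likeness. The libraries outside these pairs were no clearer. The value was 1.39 between WT input RIP8 batch 1 and KO input RIP8, but 31.7 between the runs named WT input RIP8. Between KO IP D1 batch 3 and WT input RIP8 batch 2 it was 3.09, but 35.0 between the runs named KO IP D1. A library name is therefore only a name here. Fits were also made without each input library in turn. WT IP D1 batch 2 was left out only together with KO IP D1 batch 2 and WT input RIP8 batch 2. The part of WT IP D1 batch 2 alone was therefore not tested. Without WT IP D1 batch 2, WT input D1 and KO input D1, each group is a single library and no test is left. Summed CPM of 7 CD8 T cell markers (Cd8a, Cd8b1, Cd3e, Cd3g, Thy1, Il2ra and Gzmb) was 2967 to 3837 in Lars2-rich and 4328 to 10686 in Lars2-poor runs. The sum was at most 46.9 CPM for 4 B cell markers and 14.1 CPM for 4 NK cell markers in any run. For the 4 myeloid markers with a row (Adgre1 at 0) it was 22.1 to 55.0 and 28.8 to 43.6 CPM. Of the CD4 T cell list, Cd4 itself had no named row, and Foxp3 and Zbtb7b summed to 85.1 to 167 and 58.8 to 115 CPM. For 4 erythroid and platelet markers the sum was at most 0.26 CPM, with Hbb-bs, Pf4 and Ppbp at 0.

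Cpeb4 and Cpeb2 were the CPEB mRNAs with usable counts, and Cpeb1 and Cpeb3 were close to or below the limit of detection. Over the 9 runs Cpeb4 had 535 counts, Cpeb2 242, Cpeb3 13 and Cpeb1 4. Levels are CPM, counts per 1000000 counts of the run after the Lars2 UTR was left out, with exact Poisson intervals at 95% that cover counting error only. A bulk level does not tell fewer expressing cells from less mRNA per cell.

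Cpeb4 is counted in transcript ENSMUST00000109412 from position 31931533 of chromosome 11 (mm10), inside the RefSeq gene at 31870104 to 31935635, which leaves 4103 bases to the end of the gene. In the KO IP runs it had 62 counts in batch 2 (16.2 CPM, interval 12.4 to 20.7) and 116 in batch 3 (47.1 CPM, 38.9 to 56.5). In the WT IP runs it had 25 counts in batch 2 (123 CPM, 79.8 to 182) and 48 in batch 3 (12.0 CPM, 8.87 to 15.9). The precipitates thus hold both the lowest level of Cpeb4 among the 9 runs and one of the higher ones, under the same library name. In the KO inputs Cpeb4 had 22 counts in D1 (110 CPM, 68.9 to 166) and 36 in RIP8 (126 CPM, 88.3 to 175). In the WT inputs it had 24 counts in D1 (125 CPM, 80.0 to 186), and RIP8 had 62 counts in batch 1 (195 CPM, 150 to 250) and 140 in batch 2 (34.3 CPM, 28.8 to 40.4). The KO input levels lay inside the range of the WT input levels, but that range was set by the unlike runs of WT input RIP8. Without its batch 2 run, KO inputs stood at 110 and 126 CPM and WT inputs at 125 and 195 CPM, with overlapping intervals. This UTR thus did not separate the genotypes, and whether the KO allele removes it is not given.

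The Cpeb4 level split by the kind of run, across the WT labels and along IP against input in KO. All 5 Lars2-rich runs (110 to 195 CPM, median 125) lay above all 4 Lars2-poor runs (12.0 to 47.1 CPM, median 25.2). Without the Lars2-rich runs the order was KO IP batch 3, WT input RIP8 batch 2, KO IP batch 2 and WT IP batch 3. Neighbours in that order have overlapping intervals, except WT input RIP8 batch 2 and KO IP batch 2. Among the Lars2-rich runs every neighbouring pair of intervals overlaps.

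Cpeb2 is counted in transcript ENSMUST00000114065 from position 43285947 of chromosome 5 (mm10), in the gene at 43225349 to 43289724, with 3778 bases to the gene's end. In the KO IP runs it had 54 counts in batch 2 (14.1 CPM, 10.6 to 18.4) and 27 in batch 3 (11.0 CPM, 7.22 to 15.9). In the WT IP runs it had 6 counts in batch 2 (29.6 CPM, 10.9 to 64.4) and 48 in batch 3 (12.0 CPM, 8.87 to 15.9). In the KO inputs it had 9 counts in D1 (45.0 CPM) and 15 in RIP8 (52.5 CPM). In the WT inputs it had 7 counts in D1 (36.4 CPM), and 21 in batch 1 (66.2 CPM) and 55 in batch 2 (13.5 CPM) of RIP8. Like Cpeb4, Cpeb2 was higher in each Lars2-rich run (29.6 to 66.2 CPM, median 45.0) than in each Lars2-poor run (11.0 to 14.1 CPM, median 12.7). The interval of WT IP D1 batch 2, with 6 counts, however, reaches into the Lars2-poor range. That of WT input D1, with 7 counts (14.6 to 75.1 CPM), overlaps the intervals of the Lars2-poor runs.

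**Figure D1:**
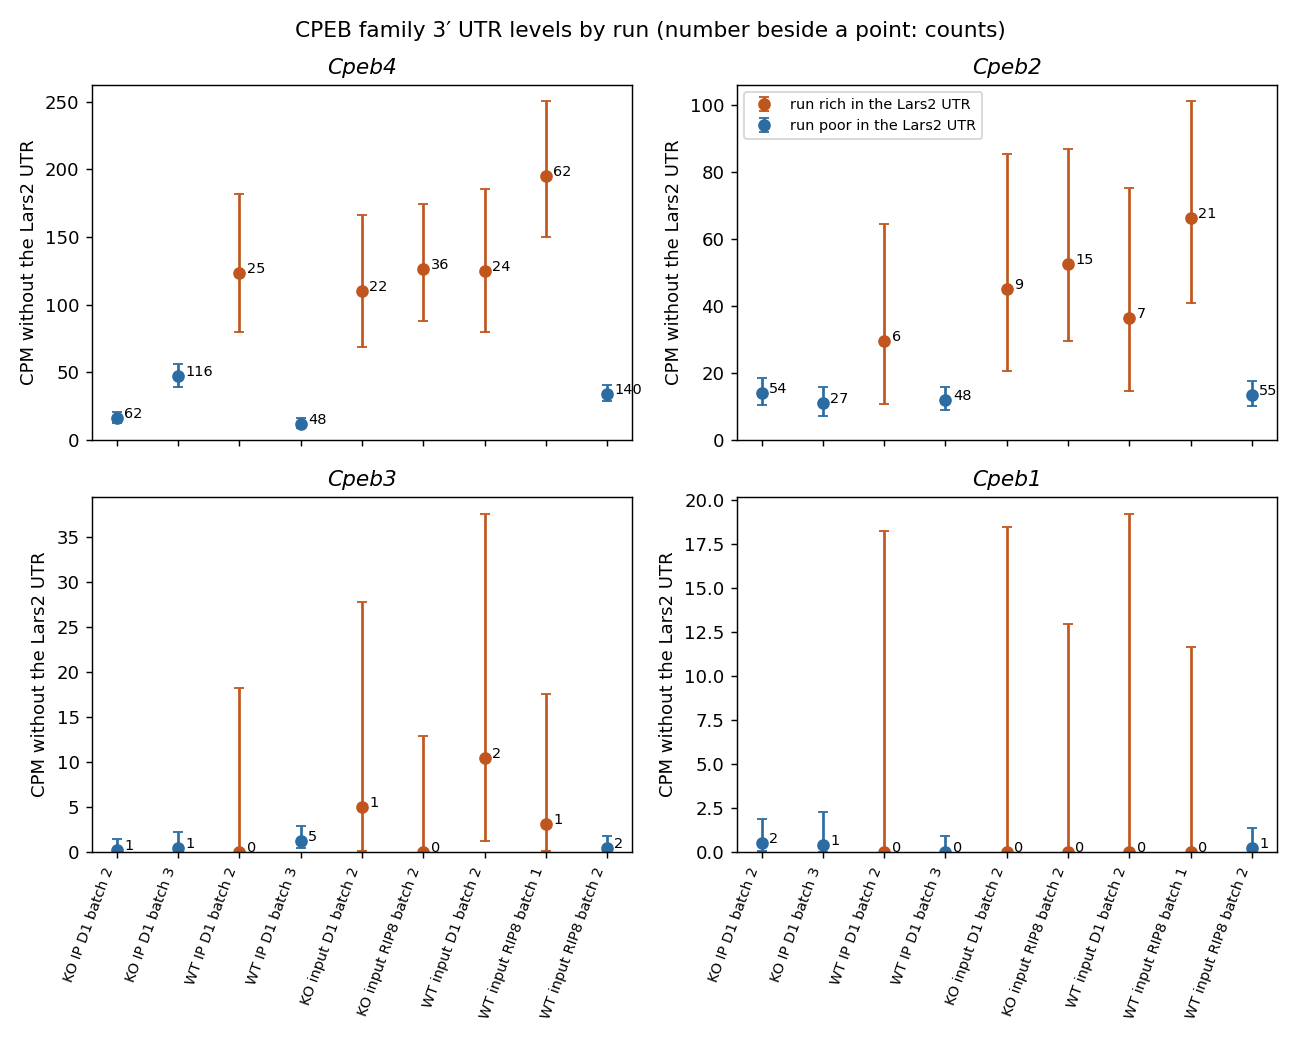
Level of each CPEB family 3′ UTR (vertical axes, CPM without the Lars2 UTR, different scales) in each of 9 runs (horizontal axes), with exact 95% Poisson intervals as bars and the counts printed beside the points. Cpeb4 and Cpeb2 lie above the Lars2-poor runs in all 5 Lars2-rich runs, and Cpeb3 and Cpeb1 never exceed 5 and 2 counts.

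Cpeb3 is counted in transcript ENSMUST00000079754 from position 37021291 of chromosome 19 (mm10), which is 1950 bases above the low end of the RefSeq gene at 37019341 to 37207620. The promoter table puts Cpeb3 on the minus strand, so the low end is the 3′ end and a row that starts there leaves out the last bases of the RefSeq gene. Its counts were 1 in each KO IP run, 0 and 5 in the WT IP runs of batches 2 and 3, 1 and 0 in the KO inputs D1 and RIP8, and 2, 1 and 2 in the WT inputs D1, RIP8 batch 1 and RIP8 batch 2. The highest count, 5 in WT IP batch 3, is 1.25 CPM (0.41 to 2.92). Pooled over the runs of a kind, Cpeb3 was at 3.34 CPM (4 counts, 0.91 to 8.55) in Lars2-rich and 0.63 CPM (9 counts, 0.29 to 1.19) in Lars2-poor runs, intervals that overlap.

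Cpeb1, the founding member, is counted in transcript ENSMUST00000098331 from position 81347026 of chromosome 7 (mm10), the low and, on the minus strand, 3′ end of the RefSeq gene, which ends at 81458001. It had 2 counts in KO IP batch 2, 1 in KO IP batch 3 and 1 in WT input RIP8 batch 2, and 0 in the other 6 runs. A count of 0 allows up to 0.75 CPM in WT IP batch 3, taking 3 counts as the limit, but up to 9.45 to 15.6 CPM in the Lars2-rich runs, which set only a loose limit. Over the 4 Lars2-poor runs together Cpeb1 was at 0.28 CPM (0.076 to 0.71).

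Levels of different genes can be set side by side only per length, and for Cpeb4 and Cpeb2 the bases from UTR start to gene end gave a length; whether the counted UTRs run that far is not given. Per kilobase of that stretch, Cpeb4 was higher than Cpeb2 in 7 of 9 runs and close to it in the other 2. The ratio of Cpeb4 to Cpeb2 per kilobase was 1.06 (95% Wilson interval 0.74 to 1.52) in KO IP batch 2 and 3.96 (2.61 to 6.00) in KO IP batch 3. In WT IP it was 3.84 (1.62 to 9.10) in batch 2 and 0.92 (0.62 to 1.37) in batch 3. In the KO inputs it was 2.25 (1.05 to 4.80) in D1 and 2.21 (1.22 to 4.0) in RIP8, and in the WT inputs 3.16 (1.39 to 7.16) in D1, 2.72 (1.67 to 4.44) in RIP8 batch 1 and 2.34 (1.72 to 3.20) in RIP8 batch 2. The 2 runs with a ratio near 1 were both precipitates, 1 of each genotype, and the other run of each of those libraries did not share it. All 5 input runs, Lars2-rich or Lars2-poor, lay between 2.21 and 3.16 with overlapping intervals.

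**Figure D2:**
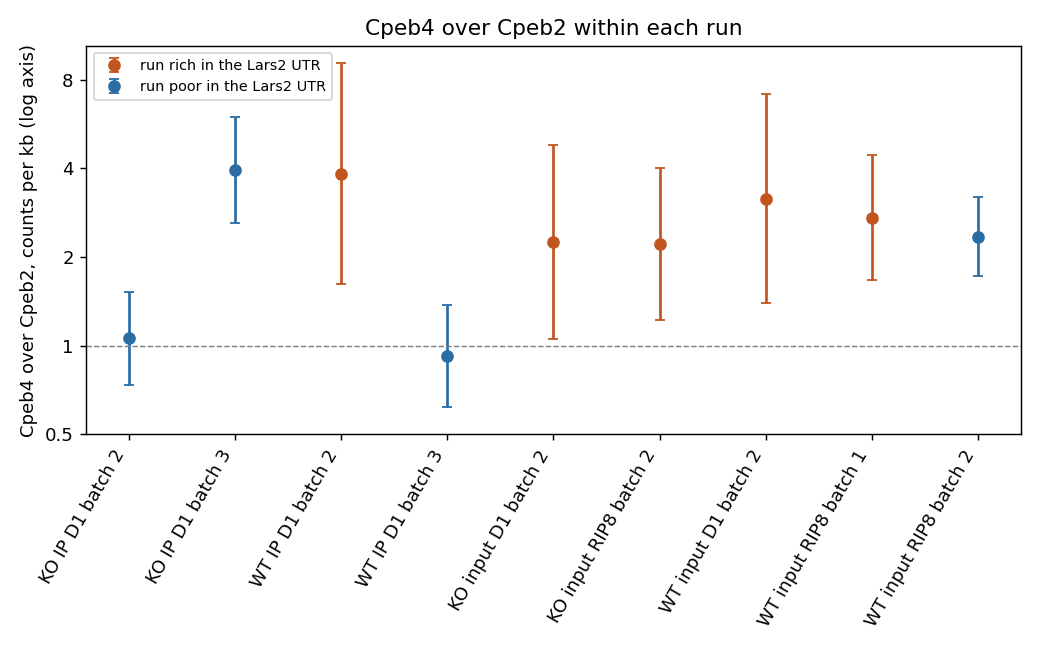
Ratio of Cpeb4 to Cpeb2 counts per kilobase of the stretch from UTR start to gene end (vertical axis, log scale) in each run (horizontal axis), with 95% Wilson intervals as bars and the dashed line at 1. KO IP batch 2 (1.06) and WT IP batch 3 (0.92) stand at the line and the other 7 runs between 2.21 and 3.96.

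Among the Lars2-poor runs Cpeb4 varied more than Cpeb2. Cpeb2 varied 1.28-fold between its highest and lowest run, with all intervals overlapping, and 93.5% of 11287 rows above 0 in these runs varied more. Cpeb4 varied 3.91-fold, against a median row of 2.31-fold, and 21.2% of rows varied more. The order of Cpeb4, with KO IP batch 3 and WT input RIP8 batch 2 above KO IP batch 2 and WT IP batch 3, was shared by 42.5% of 11519 rows with at least 20 summed counts, an order picked after the values were seen. Chi-square per degree of freedom between KO IP batch 3 and WT input RIP8 batch 2 was 3.09, the lowest among the Lars2-poor runs.

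Against all rows, the rise of both genes in Lars2-rich runs was on the high side and not singular. Of the 11519 rows, 21.9% were higher in every Lars2-rich than in every Lars2-poor run, and 19.6% were lower in every one. Cpeb4 and Cpeb2, the 2 of 4 members with at least 20 summed counts, were both among the higher rows. On the scale log2 of mean CPM + 1, Lars2-rich over Lars2-poor, Cpeb4 was at 2.27 and Cpeb2 at 1.78, while the median row was at 0.08, and 7.67% and 12.4% of rows exceeded them. The Lars2-rich runs also had fewer counts in all and a lower summed level of the CD8 T cell markers, as given above, and the part of these in the levels of Cpeb4 and Cpeb2 was not tested.

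The genes of most like pattern were read by Pearson correlation of log2(CPM + 1) over the 9 runs among 7722 named rows with at least 90 summed counts. For Cpeb4 they were Camk2d, a calcium/calmodulin-dependent kinase subunit (r = 0.994), Rest, a repressor of neuronal genes (0.993), and Rfx5, a transcription factor of MHC class II genes (0.993). For Cpeb2 they were Hbs1l, a ribosome rescue factor (0.980), Trak2, a mitochondrial transport adaptor (0.974), and Dnajb14, a chaperone cofactor (0.972). Each was higher in every Lars2-rich than in every Lars2-poor run. An r above 0.9 was reached by 876 rows for Cpeb4 and 260 for Cpeb2, so a high r was not particular to the genes named. For these genes r was not read within a kind of run, and the part of the kinds in it was not tested. Cpeb2 and Cpeb4 themselves correlated at r = 0.878 (Spearman's rho 0.833) over the 9 runs, at 0.669 within the 5 Lars2-rich runs and at −0.387 within the 4 Lars2-poor runs. The runs share libraries, depth and batches, and these correlations are descriptions with no test.

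Genes of proteins that act with CPEB lay on both sides. Of 24 listed genes of the CPEB machinery 20 had a named row and 19 had at least 20 counts, of which 1 was higher and 5 were lower in every Lars2-rich run (5.26% and 26.3%, against 21.9% and 19.6% of all rows), with a median log2 ratio of −0.15. The 5 with the highest mean level were Pabpc1, the cytoplasmic poly(A)-binding protein, Cnot6, a deadenylase of the CCR4-NOT complex, Lsm14a, a P-body protein, Cpsf2, a cleavage and polyadenylation subunit, and Eif4e, the cap-binding protein. Pabpc1 was at 144 to 939 CPM in Lars2-rich and 1691 to 8721 CPM in Lars2-poor runs, and Cpsf2 at 55.0 to 80.6 and 137 to 246 CPM. Cnot6 was the higher one, at 345 to 492 CPM in Lars2-rich and 147 to 274 CPM in Lars2-poor runs. Lsm14a (138 to 246 and 160 to 291 CPM) and Eif4e (75.0 to 151 and 74.7 to 173 CPM) overlapped. Eif4enif1, which encodes the eIF4E-binding protein 4E-T, Aurka, a kinase that phosphorylates CPEB1 in frog oocytes, and Sympk, the scaffold symplekin, were the other 3 lower genes.

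Of 17 mRNAs listed as bound or regulated by CPEB proteins in other settings, 15 had a named row and 13 had at least 20 counts; 1 was higher and 1 lower in every Lars2-rich run (7.69% each), and the median log2 ratio was −0.37. The higher one was Vegfa, the angiogenic growth factor (311 to 392 CPM in Lars2-rich and 68.4 to 252 CPM in Lars2-poor runs), and the lower one Ccnb2, a mitotic cyclin (0 to 15.6 and 34.7 to 58.0 CPM). The others among the 5 with the highest level overlapped: Hif1a, the hypoxia-induced factor (538 to 687 and 388 to 637 CPM), Xbp1 of the unfolded protein response (120 to 202 and 115 to 300 CPM), Txnip, a thioredoxin inhibitor (143 to 274 and 133 to 167 CPM), and Rab27a, a granule trafficking GTPase (120 to 207 and 119 to 290 CPM).

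**Figure D3:**
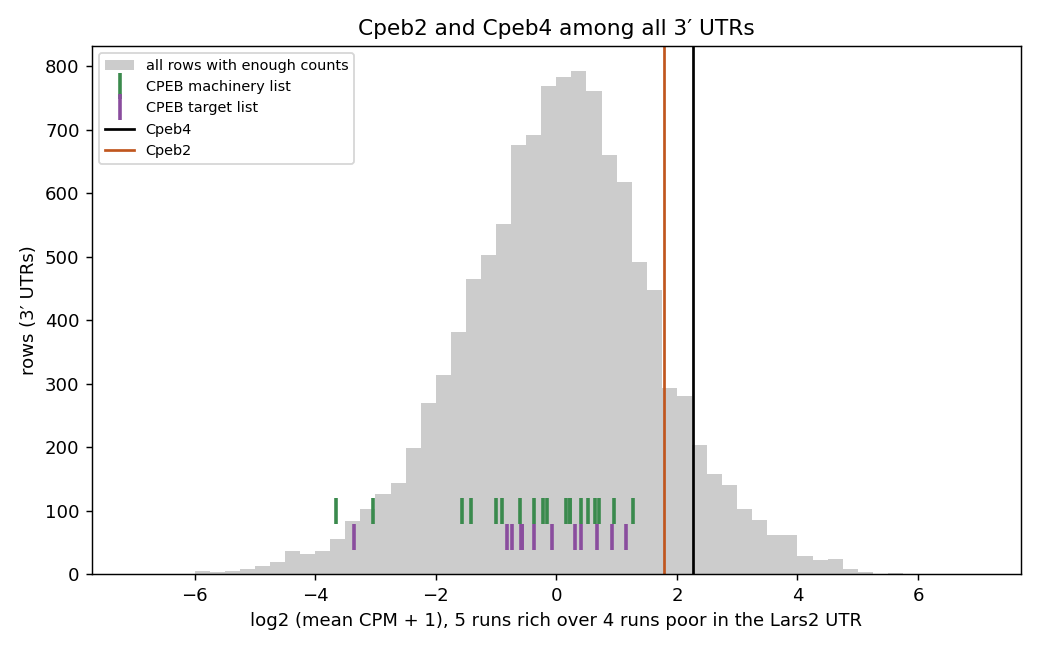
Histogram of 11519 rows (vertical axis, number of 3′ UTRs) by the log2 ratio of mean CPM + 1 in 5 Lars2-rich over 4 Lars2-poor runs (horizontal axis), with Cpeb4 (2.27) and Cpeb2 (1.78) as lines and the CPEB machinery and target lists as ticks. Both CPEB genes lie right of every tick, and the medians of the lists are −0.15 and −0.37.

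The study's own comparisons were then read for the family from edgeR's quasi-likelihood test on all rows, with the runs of a library summed, p-values adjusted by Benjamini-Hochberg over 11496 rows and a threshold of 0.05. Cpeb2 and Cpeb4 passed the filter on low counts, and Cpeb1 and Cpeb3 did not. Only the inputs had a second library, which left 2 residual degrees of freedom. The single KO IP and WT IP libraries were taken to scatter as the inputs do. Of the WT inputs, D1 was Lars2-rich and RIP8 held mostly counts of its Lars2-poor run. Common dispersion was 0.281, but 0.074 without WT input D1 and 0.079 without WT input RIP8, against 0.38 without either KO input. A result of 0 called rows therefore does not show that nothing changed. Each SE was derived from the fold change and its F statistic and is no separate estimate of error.

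The central question was whether the IP over input ratio depends on CPEB4. No CPEB mRNA passed in KO IP over KO input against WT IP over WT input (0 of 2 members, as for 0% of all rows, with an unadjusted p under 0.05 in 124 rows). The log2 value was −0.15 ± 1.17 for Cpeb4 (SE, adjusted p = 1.00 by edgeR) and −1.28 ± 1.36 for Cpeb2 (adjusted p = 1.00 by edgeR). For Cpeb4 the direction turned with the runs used: it was −3.25 ± 1.29 in the batch 2 runs alone (adjusted p = 0.293 by edgeR) and 1.89 ± 0.68 with the batch 1 or 3 run in place of batch 2 wherever a library had both (adjusted p = 0.229 by edgeR). Cpeb2 stayed below 0 in both, at −1.82 ± 1.71 and −0.55 ± 0.91, and was −0.78 ± 1.21 without WT input RIP8.

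By the labels, KO IP against WT IP compares precipitates prepared alike. The run WT IP D1 batch 2, however, resembled WT input D1 and KO input D1 (chi-square per degree of freedom 1.05 and 1.09). Summed over runs, Cpeb4 had 178 counts in the KO IP library and 73 in the WT IP library, and Cpeb2 81 and 54, in 6302575 and 4193355 counts. WT IP D1 batch 2 gave 25 of the 73 Cpeb4 counts but only 202633 of the 4193355 counts. Neither passed (0 of 2 members, 0% of all rows, with an unadjusted p under 0.05 in 33), with log2 values of 0.37 ± 0.94 for Cpeb4 and −0.33 ± 1.06 for Cpeb2 (adjusted p = 1.00 for both by edgeR). Within batch 2, Cpeb4 stood at 16.2 CPM in KO IP against 123 CPM in WT IP, and the fit gave −2.62 ± 1.07. Within batch 3, it stood at 47.1 CPM in KO IP against 12.0 CPM in WT IP, and the fit with the other runs gave 1.43 ± 0.54. These opposed directions went with the Lars2 share, which was 2.23% against 48.6% in batch 2 and 5.40% against 1.16% in batch 3. Within the Lars2-poor runs Cpeb4 rose from 12.0 CPM at a share of 1.16% to 47.1 CPM at 5.40%. Within the Lars2-rich runs it fell, from 195 CPM at 34.8% to 110 CPM at 50.1%. The part of the Lars2 share in the opposed directions was not tested.

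WT IP against WT input asks whether the precipitate is enriched in an mRNA. Inputs were poly(A)-selected and amplified for 12 cycles, and precipitates were unselected and amplified for 7. Enrichment cannot be told apart from this difference in preparation. Cpeb4, which carried 73 counts in WT IP and 24 and 202 in the WT inputs D1 and RIP8, had a log2 value of −1.64 ± 0.89 (adjusted p = 0.639 by edgeR), and Cpeb2, with 54 against 7 and 76 counts, had −0.38 ± 0.97 (adjusted p = 0.913 by edgeR). Neither passed (0 of 2 members, 0% of all rows, with an unadjusted p under 0.05 in 878). Cpeb4 passed toward lower values with the batch 1 and 3 runs (−3.08 ± 0.54, adjusted p = 0.0012 by edgeR), where 20.9% of 7933 rows also passed as lower, and without the library WT input RIP8 (−2.30 ± 0.68, adjusted p = 0.0041 by edgeR), where 14.3% of 7658 rows did. In the first of these fits WT IP was Lars2-poor (1.16%) and both WT inputs were Lars2-rich (47.2 and 34.8%), and in the other the WT IP sum, mostly of its Lars2-poor run, stood against a Lars2-rich input, so that these calls coincide with the split by kind of run; its part in them was not tested. In the batch 2 runs alone it was 0.68 ± 0.89, and between the D1 runs of batch 2 it was 123 CPM in WT IP and 125 CPM in WT input.

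KO input against WT input compares the genotypes before precipitation. Cpeb4 had 22 and 36 counts in the KO inputs D1 and RIP8, with a log2 value of 0.53 ± 0.70, and Cpeb2 9 and 15 counts, with 0.95 ± 0.84 (adjusted p = 0.996 for both by edgeR). Without WT input RIP8 the value of Cpeb2 was 0.46 ± 0.94. Neither passed (0 of 2 members, 0% of all rows, with an unadjusted p under 0.05 in 600). Another fit took the Lars2-rich run of WT input RIP8 (batch 1) in place of its Lars2-poor run, and batch 3 for the IP libraries. Its values were −0.46 ± 0.41 for Cpeb4 and −0.12 ± 0.58 for Cpeb2, both of the opposite sign. All inputs in that fit were Lars2-rich.

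The machinery and target lists gave 0 called genes of 20 and 12 tested in all 4 comparisons. Their medians in KO IP over KO input against WT IP over WT input were 0.38 and 0.72, beside 0.27 for all rows. In KO IP against WT IP they were 0.18 and 0.58 beside 0.01, in WT IP against WT input −0.09 and 0.02 beside −0.10, and in KO input against WT input −0.51 and −0.30 beside −0.10. These comparisons share libraries with each other.

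**Figure D4:**
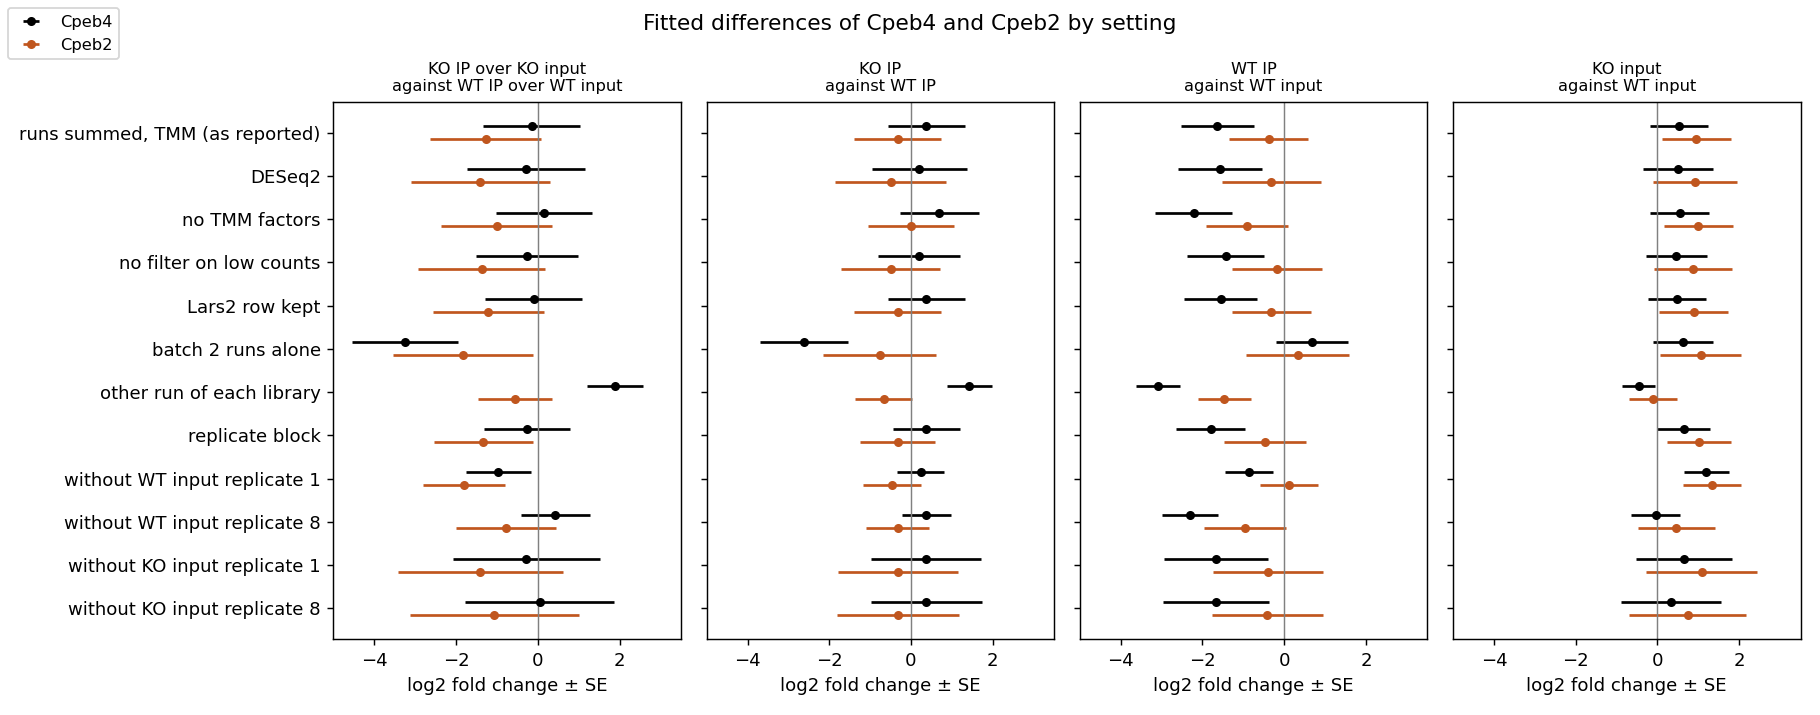
Log2 fold changes (horizontal axes, points, with bars of ± SE) of Cpeb4 and Cpeb2 in the 4 comparisons (panels) under the reported fit, in the top row, and 11 alternatives; "other run of each library" means the batch 1 or 3 run in place of batch 2, and replicates 1 and 8 are D1 and RIP8. Cpeb4 moves most with the choice of runs, between −3.25 and 1.89 in the left panel, while Cpeb2 keeps within −1.82 and −0.55 there.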

How the data were processed

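The authors deposited raw counts of reads per 3′ UTR, 1 column per run, made with featureCounts on mm10, per the submitters' processing notes, which also name Bowtie 1.2.3, Bowtie2 2.2.2 and R 3.5.1 without roles. Of the annotation, the strand setting and multi-mapped reads the sources used here say nothing. Columns were assigned by run name, 0 were left without a sample, and the 9 in register were used. Symbols came from RefSeq GRCm38.p6 by UTR start: 3828 rows matched a gene start (6 after a shift of 1000000 bases), which gave each row its chromosome, and 15967 rows took a symbol in the falling alphabetical order of the rows. The Lars2 row was dropped before totals. Runs of a library were summed for edgeR 4.0.16 (R 4.3.3, TMM, filterByExpr, group means model, common dispersion 0.281). Its code was checked on simulated data for KO input against WT input only. The simulated data had less scatter and larger changes than those fitted for the family in that comparison. That check therefore does not show which changes the fits could find in these data. DESeq2 1.42.0, other normalization, filters, runs, a block and left-out libraries were alternatives. Total counts were 364113 to 4182830 per run. Members, lists and the Lars2 split at 20% were chosen with earlier results of these data known. Named are all members, the up to 5 list genes with the highest mean CPM, the 3 genes nearest each member by r, and, after their values were seen, the non-overlapping list genes.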

Additional observations from a re-analysis of the deposited data

How the results depend on the processing

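Cpeb4 turned its direction in KO IP over KO input against WT IP over WT input without TMM factors (0.15), with the batch 1 and 3 runs in place of batch 2 (1.89) and over left-out input libraries (−0.97 to 0.43, above 0 without WT input RIP8, and at 0.042 without KO input RIP8). In KO IP against WT IP it turned in the batch 2 runs alone (−2.62). In WT IP against WT input Cpeb4 (0.68) and Cpeb2 (0.33) turned in the batch 2 runs alone, and Cpeb2 also over left-out libraries (−0.96 to 0.11, above 0 without WT input D1). In KO input against WT input, Cpeb4 (−0.46) and Cpeb2 (−0.12) turned with the batch 1 and 3 runs, and Cpeb4 over left-out libraries (−0.047 to 1.199, below 0 without WT input RIP8). Cpeb2 kept its sign over left-out libraries in KO IP over KO input against WT IP over WT input (−1.80 to −0.78) and in KO input against WT input (0.46 to 1.34), nearest 0 without WT input RIP8 in both. Members called stayed at 0 except in WT IP against WT input, where Cpeb4 made it 1 with the batch 1 and 3 runs and 0 to 1 over left-out libraries.

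Over all rows, where 0 were called, KO IP against WT IP gave 532 with the batch 1 and 3 runs. WT IP against WT input gave 28 by DESeq2, 94 without the filter on low counts and 3775 with the batch 1 and 3 runs. KO input against WT input gave 28 by DESeq2 and 84 without the filter. Leaving out 1 input library gave 0 to 1175 calls in KO IP over KO input against WT IP over WT input, 0 to 86 in KO IP against WT IP, 0 to 2639 in WT IP against WT input and 0 to 2363 in KO input against WT input, with the highest without WT input D1 except for WT IP against WT input, where it was without WT input RIP8. Among these fits common dispersion was 0.074 and 0.079 without WT input D1 and RIP8, and 0.38 without either KO input. The part of that scatter in the calls was not tested. By DESeq2 the adjusted p of both members was not available in the last 2 comparisons. With the experiment number as a replicate block, WT IP against WT input gave 538 calls and KO input against WT input 2, and no member was called; 2 pairs of inputs share a number (correlation of their deviations 0.178), which does not show that the numbers pair them.

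With the Lars2 row kept in the totals, Cpeb4 stood at 63.5 CPM in WT IP D1 batch 2, 54.9 in KO input D1, 79.4 in KO input RIP8, 65.9 in WT input D1 and 127 in WT input RIP8 batch 1. These 5 runs and those of Cpeb2 still lay above the Lars2-poor runs, while 1276 rows were then higher and 3883 lower in every Lars2-rich run, against 2526 and 2254. Depth limits Cpeb1 and Cpeb3 in every run, and Cpeb2 in the Lars2-rich runs, where it had 6 to 21 counts.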
